A study of Mus musculus with 22 samples.

Results

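The bacteria of lung tissue were compared between mice challenged with ovalbumin (OVA) through the airway and naive mice. All lung samples labelled naive (n = 3) and all those labelled OVA-challenged with vehicle, called Ova-veh (n = 3), were taken, which is 6 of the 22 samples of the series, and all 40 taxa listed for the lung were used with their sums by phylum, order and family. Every animal was a female BALB/c mouse bought at 6 to 8 weeks of age. Ova-veh mice were sensitized by an intraperitoneal injection of 250 µg OVA with aluminum hydroxide on day 0, were given 50 µg OVA intranasally on day 7, and received 200 µl of carboxymethyl cellulose solution, the vehicle, by daily gavage on days 1 to 14. For naive mice the methods give no separate account of injection, challenge or gavage. The Ova-veh group thus carried sensitization, challenge and gavage together, and the effects of these steps cannot be told apart. Lungs were taken on day 15. Groups were kept in isolated cages, so cage and treatment cannot be told apart either. Mice that received resveratrol were not used here.

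OVA with aluminum hydroxide is a widely used way to sensitize mice, and OVA given into the airway then evokes an allergic inflammation with eosinophils and mucus, a model of asthma. Healthy lungs hold few bacteria, which arrive by microaspiration, inhalation and possibly from the gut, and mucus, oxygen and immune cells set which of them persist. Bacteria with an outer membrane carry lipopolysaccharide (LPS), which is sensed by TLR4 on epithelial and immune cells, and intestinal anaerobes make short-chain fatty acids such as butyrate, which act on T cells. The comparison asks whether the bacterial make-up of the lung differs after OVA challenge.

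The 16S rRNA gene, which is read to name bacteria, was amplified from DNA of 500 mg lung tissue, and the values are the share of each mouse's 16S reads given to each taxon, here in percent. Shares are rounded to steps of 0.1%, so a taxon listed at 0 held under 0.05%. The 40 taxa belonged to 8 phyla, 14 orders and 21 families and summed to between 96.2 and 97.3% of reads (median 96.6%). Each mouse had 38 or 39 of the 40 taxa above 0. The sources used here do not state how many reads a mouse had. The depth is therefore unknown, and shares say nothing of the total amount of bacteria. None of 23 genera taken as typical of airways, skin or laboratory reagents, such as Pseudomonas, Streptococcus, Staphylococcus and Ralstonia, was among the listed taxa. This list and the next were chosen with earlier results of these data known, and the reads outside the listed taxa could hold such genera. Of 18 families of intestinal anaerobes, 14 were listed, and they held from 68.3 to 72.5% of reads in each of the 6 lungs. The labelled tissue thus carried a listed community largely of gut-type anaerobes, in naive and Ova-veh mice alike. Haererehalobacter salaria, of the Halomonadaceae, was in neither list and stood at 0.3 to 0.5% in each lung. No extraction blank was analysed here. The study's legend also states that some lung mice were left out by a setting of its analysis platform, and the sources used here do not say which.

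At the level of phyla the lungs of the groups were much alike. Firmicutes, which holds the spore-forming clostridia, made up 51.9, 51.1 and 51.3% of reads in naive mice and 51.6, 49.9 and 48.2% in Ova-veh mice. Bacteroidetes, whose members break down glycans in the gut, made up 37.3, 38.8 and 37.8% in naive and 37.4, 39.3 and 41% in Ova-veh mice. For both phyla Ova-veh replicate 1 lay among the naive mice, and Ova-veh replicate 3 had the lowest share of Firmicutes and the highest of Bacteroidetes of the 6 mice. The mean share of Firmicutes was 51.4% ± 0.416 (SD, n = 3) in naive and 49.9% ± 1.70 (SD, n = 3) in Ova-veh mice, a difference of -1.53 percentage points (two-sided exact permutation p = 0.3, 0.48 after adjustment over 8 phyla). That of Bacteroidetes was 38.0% ± 0.764 and 39.2% ± 1.80 (SD, n = 3 each), a difference of 1.27 points (exact permutation p = 0.3). The ratio of Firmicutes to Bacteroidetes stood at 1.36 ± 0.0372 in naive and 1.28 ± 0.102 in Ova-veh mice (SD, 3 mice per group, exact permutation p = 0.3), and together these phyla held from 89 to 89.9% of reads in every mouse. Without Ova-veh replicate 3 the differences were -0.683 points for Firmicutes and 0.383 points for Bacteroidetes, and without Ova-veh replicate 1 they were -2.38 and 2.18 points.

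The smaller phyla are named mostly for a single lung taxon. Deferribacteres, listed only as the mucus-dwelling Mucispirillum schaedleri, stood at 2.4, 2 and 2.2% in naive and at 2.6, 2.3 and 3.6% in Ova-veh mice. The groups overlapped, and a single mouse, Ova-veh replicate 3, stood clear above the rest. Verrucomicrobia, listed only as the mucin feeder Akkermansia muciniphila, stood at 1.4% in each naive mouse and at 1.3, 1.1 and 1.3% in Ova-veh mice. It was the single phylum whose groups did not overlap, 1 of 8 (12.5%), with Ova-veh lower. Under centred log-ratio scaling A. muciniphila did overlap between groups. TM7, a phylum of very small cells that live on other bacteria, was listed as family F16 and stood at 0.9, 1 and 0.9% in naive and at 0.7, 0.9 and 0.5% in Ova-veh mice. One Ova-veh mouse reached the naive values and the others lay below them. After scaling all mice to the same total TM7 gave an exact permutation p of 0.1. Scaling split mice listed at the same 0.9%, naive replicates 1 and 3 and Ova-veh replicate 2, by less than the rounding step. Proteobacteria, which carry LPS, stood at 2.5% ± 0.2 in naive and 2.53% ± 0.231 in Ova-veh mice (SD, 3 mice per group, exact permutation p = 1). Wall-less Tenericutes were listed at 0.2 or 0.3% in every mouse, and Actinobacteria, listed as Coriobacteriaceae, at 0.1% in each naive mouse and in Ova-veh replicate 2 and at 0 in the other Ova-veh mice. The exact permutation p of Verrucomicrobia was 0.1, which is the smallest that 3 mice against 3 allow, so no phylum could pass 0.05 by this test. Adjusted over the 8 phyla, the p-values lay between 0.48 and 1.

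**Figure D1:**
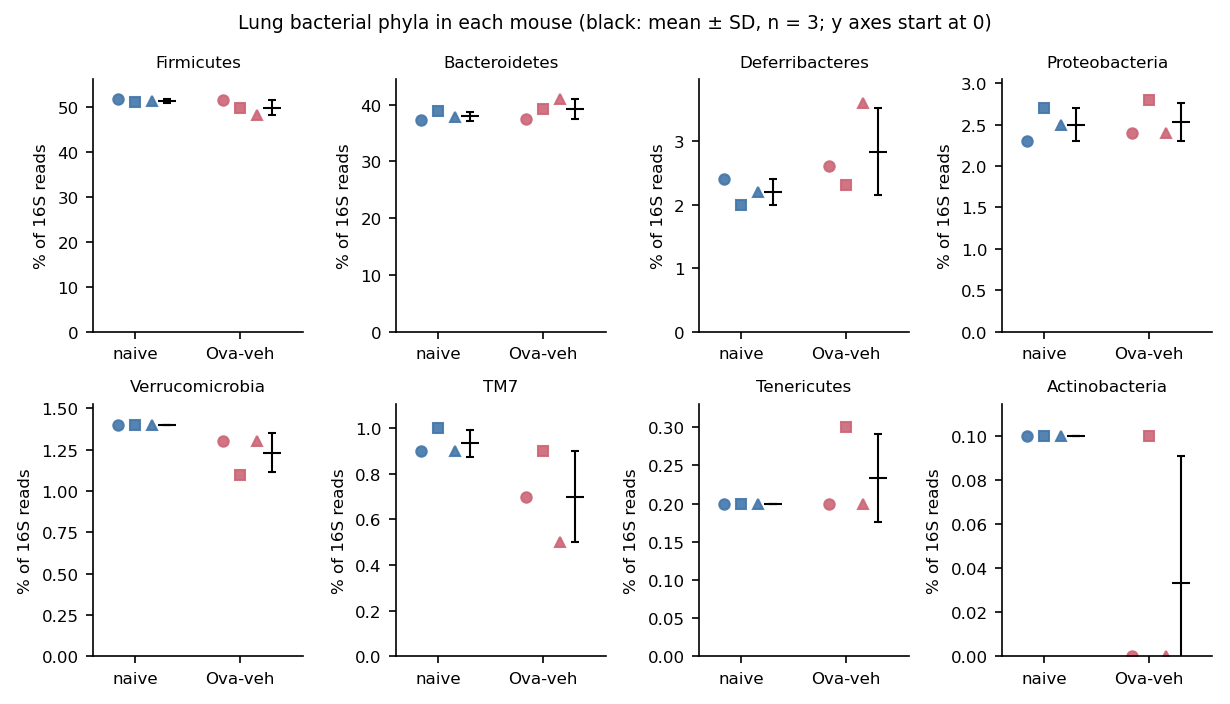
Share of 16S reads (%, each y axis from 0) of each of the 8 listed phyla in 3 naive and 3 Ova-veh lungs; each point is a mouse, symbols give the replicate number, and black marks give mean ± SD (bars are cut at 0). The groups overlap in each phylum except Verrucomicrobia, with 1.4% in every naive mouse and 1.1 to 1.3% in Ova-veh mice.

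Seen as whole communities, Ova-veh lungs lay about as far from naive lungs as lungs of a group lay from each other. The Bray-Curtis distance, which is 0 for identical and 1 for communities that share nothing, was 0.0371 in the median (0.0297 to 0.0462) over the 3 pairs of naive mice, 0.0485 (0.0472 to 0.0613) over the 3 pairs of Ova-veh mice and 0.0444 (0.0278 to 0.0710) over the 9 pairs between groups. The closest pair of all was naive replicate 2 with Ova-veh replicate 1, and the most distant was naive replicate 3 with Ova-veh replicate 3. The mean distance to the naive mice was 0.0334 for Ova-veh replicate 1, 0.0427 for replicate 2 and 0.0615 for replicate 3, against 0.0334, 0.0380 and 0.0417 for the naive mice among themselves. Ova-veh replicate 1 thus sat among the naive mice and replicate 3 stood apart from them. Of the squared distances, 23.5% lay between the groups (exact permutation p = 0.4 with 20 ways to label the mice). Leaving out a mouse moved this share strongly: it was 44.5% without Ova-veh replicate 1 (exact permutation p = 0.1) and 17.5% without Ova-veh replicate 3 (exact permutation p = 0.9). Mice of the Ova-veh group lay on average 0.0146 farther from each other than naive mice did (exact permutation p = 0.5). This value ran from 0.00612 to 0.0236 with any 1 mouse left out, lowest without naive replicate 1 and highest without Ova-veh replicate 2. On the Aitchison distance, which compares log ratios of taxa, Ova-veh mice were also the farther apart (exact permutation p = 0.1, the smallest possible). Diversity within a mouse, given as the Shannon index, was 2.59 in both groups, with an SD of 0.0230 in naive and 0.0141 in Ova-veh mice (n = 3 in each group; exact permutation p = 0.9).

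**Figure D2:**
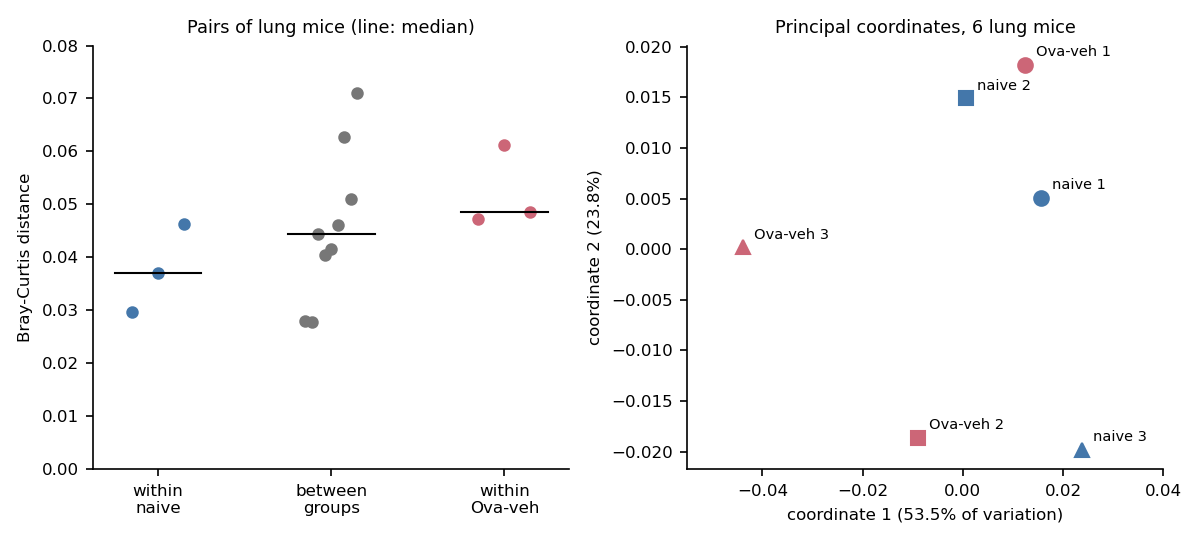
Left, Bray-Curtis distance (0 to 1 scale, no unit) of each pair of the 6 lung mice, with the median as a line; right, the same distances as principal coordinates, which hold 53.5 and 23.8% of the variation. Pairs between groups span 0.0278 to 0.0710, and Ova-veh replicate 3 lies at the far left while Ova-veh replicate 1 lies near naive replicates 1 and 2.

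The 6 most abundant taxa held from 69.3 to 70.5% of reads in each lung. The more abundant of the rows named Clostridiales with no lower rank stood at 22.1, 21.3 and 23.4% in naive and at 21.3, 21.6 and 20.2% in Ova-veh mice. The Bacteroidetes family S24-7, glycan degraders of the rodent gut, stood at 21.3, 21.9 and 21.6% in naive and at 21.3, 22 and 22.3% in Ova-veh mice. Both leading taxa overlapped between groups, and S24-7 varied least of all taxa of at least 1%, with a coefficient of variation within groups of 1.93%. Odoribacter, a genus known to make butyrate, stood at 7.3, 7.6 and 7.3% in naive and at 7.4, 8.2 and 9% in Ova-veh mice. The upper Ova-veh mice lay above every naive mouse and the lowest lay between them. Its mean was 1.11 times the naive mean (exact permutation p = 0.2). Oscillospira, an anaerobe of the Ruminococcaceae, stood at 8, 8.2 and 7.3% in naive and at 8.3, 7 and 7.1% in Ova-veh mice (exact permutation p = 0.6). Its groups overlapped as well. The more abundant Ruminococcaceae row stood at 7.1, 6.9 and 5.5% in naive and at 7.5, 6.3 and 6.4% in Ova-veh mice. The more abundant Lachnospiraceae row stood at 4.4, 4.3 and 5% in naive and at 4.7, 4.9 and 4.3% in Ova-veh mice. Both families ferment fibre, and their sums differed little: Ruminococcaceae held 18.4% ± 1.42 against 18.3% ± 1.40 (exact permutation p = 1) and Lachnospiraceae 7.63% ± 0.404 against 7.57% ± 0.252 (exact permutation p = 0.8). The order Clostridiales as a whole stood at 50.2, 49.5 and 49.7% in naive and at 50.1, 48.2 and 45.9% in Ova-veh mice (exact permutation p = 0.3, 0.84 after adjustment over 14 orders). Its lower Ova-veh mean came with overlap, since replicate 1 of the Ova-veh group lay within the naive range.

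Several smaller orders and families of at least 1% also overlapped between groups. Desulfovibrionales, sulfate reducers that release hydrogen sulfide, stood at 1.57% ± 0.115 in naive and 1.7% ± 0.3 in Ova-veh mice (exact permutation p = 0.7). Erysipelotrichales stood at 1.2% ± 0.1 and 1.3% ± 0.346 (exact permutation p = 1). Bacteroidaceae, which can use host glycans, stood at 2.3% ± 0.173 and 2.4% ± 0.346 (exact permutation p = 0.8). Rikenellaceae stood at 2.33% ± 0.252 and 2.43% ± 0.404 (exact permutation p = 0.8), and Prevotellaceae, plant fibre degraders, at 2.5% in each naive mouse against 2.43% ± 0.153 (exact permutation p = 0.7). All these are means ± SD with n = 3 per group. Their differences of at most 0.133 points lay within the spread of the mice.

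All 40 taxa were tested together with limma on log2(percent + 0.05), where the added value is 0.05%, below the rounding step. At an adjusted p under 0.05 limma called 0 of 40 taxa (0%), and at an unadjusted p under 0.05 it called 1 (2.5%), a Clostridiaceae row with no lower rank. The unadjusted count was 5 without Ova-veh replicate 1, 4 without Ova-veh replicate 2, and 2 without Ova-veh replicate 3 and under centred log-ratio scaling. The median log2 change over all taxa was 0, with 16 taxa higher in mean in Ova-veh mice, 16 lower and 8 equal. For 24 taxa the means differed by less than 1 rounding step. Only 3 taxa differed by 0.5 points or more, namely the more abundant Clostridiales row at -1.23 points, Odoribacter at 0.8 points and M. schaedleri at 0.633 points. Without naive replicate 3, the log2 difference of the Clostridiales row went from -0.08 to -0.045. The 3 taxa made up 46.8% of the 5.7 points that the absolute differences of all taxa summed to. Leaving out Ova-veh replicate 2, limma called 2 taxa, Coriobacteriaceae and A. muciniphila, both lower in Ova-veh mice, each of them with no spread left between mice of a group after rounding.

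**Figure D3:**
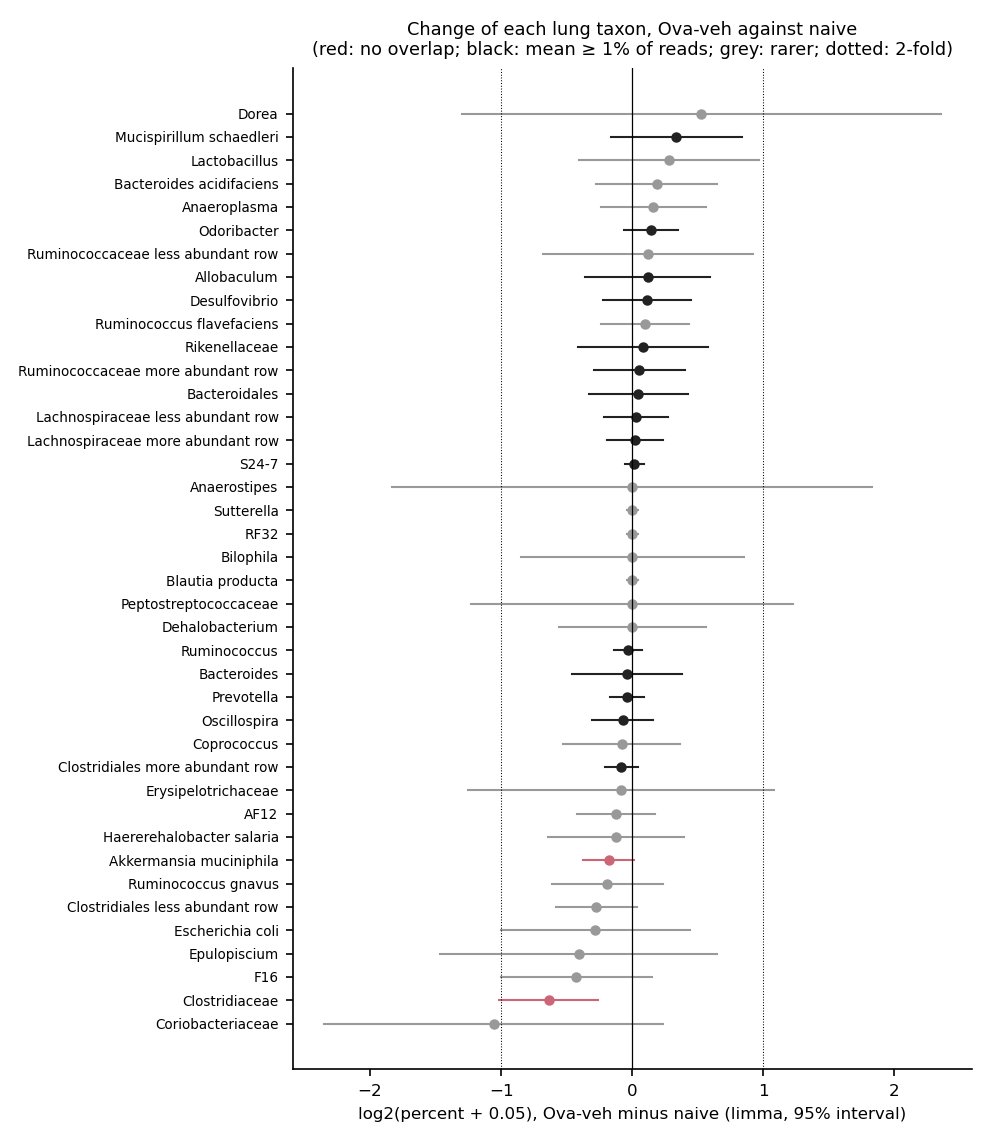
Difference between Ova-veh and naive lungs in mean log2(percent + 0.05) for each of the 40 taxa, as point and 95% interval by limma, not adjusted for the number of taxa (n = 3 per group). Red marks the taxa with no overlap between groups, black those with a mean of at least 1% and grey the rarer ones, and the intervals of the 16 black and red taxa of at least 1% all lie between the dotted lines at 2-fold.

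Clostridiaceae and A. muciniphila were the taxa whose groups did not overlap, 2 of 40 with Ova-veh lower (5%) and 0 with Ova-veh higher (0%). Among the sums, the same held for 1 of 14 orders (7.14%), that of A. muciniphila, and for 2 of 21 families (9.52%), those of both taxa. Clostridiaceae, the family of the type genus Clostridium, stood at 0.4, 0.5 and 0.6% in naive mice and at 0.3% in each Ova-veh mouse. Every Ova-veh mouse lay below every naive mouse, and the nearest values were 1 rounding step apart. The Ova-veh mean was 0.6 times the naive mean. On log2(percent + 0.05) the log2 difference was -0.64 (standard error 0.143, limma unadjusted p = 0.00814, adjusted p = 0.326), a fold of 0.644. The 95% interval of this fold ran from 0.495 to 0.836 by limma and is not adjusted for the 40 taxa. Leaving out any 1 mouse, its log2 difference ran from -0.77 to -0.51 and its adjusted p by limma from 0.0519 to 0.854. A. muciniphila had an Ova-veh mean of 1.23% ± 0.115 (SD, n = 3), 0.881 times the naive 1.4%. By limma its log2 difference was -0.18 (standard error 0.0734, limma adjusted p = 0.785). Its nearest values, 1.4 and 1.3%, were also 1 rounding step apart, so before rounding the groups may have lain closer than this. Leaving out Ova-veh replicate 2, the lowest, gave a log2 difference of -0.10 for A. muciniphila. Of the 40 taxa, 10 did not overlap without Ova-veh replicate 1, 5 without Ova-veh replicate 2 and 4 without naive replicate 2. A group of 2 mice separates from 3 more easily than a group of 3 does. These counts can therefore not be set against the 2 of 40 with all mice. The 10 were Clostridiaceae, the less abundant Clostridiales row, Ruminococcus gnavus, A. muciniphila and Oscillospira, with Ova-veh lower, and Lactobacillus, Bacteroides acidifaciens, Desulfovibrio, Odoribacter and S24-7, with Ova-veh higher.

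Of the taxa with a mean of at least 0.1%, the 5 largest higher values by limma belonged to M. schaedleri, Lactobacillus, B. acidifaciens, Anaeroplasma and Odoribacter. M. schaedleri had an Ova-veh mean 1.29 times the naive mean, with a log2 difference of 0.34 (standard error 0.190, limma adjusted p = 0.785) and a 95% interval of the fold from 0.893 to 1.79. Without Ova-veh replicate 3 its log2 difference was 0.15, and without Ova-veh replicate 2 it was 0.47. Lactobacillus, a lactic acid bacterium of the upper gut and airways, stood at 0.5, 0.5 and 0.3% in naive and at 0.4, 0.6 and 0.6% in Ova-veh mice. Its groups overlapped, and its log2 difference of 0.28 became 0.064 without naive replicate 3. B. acidifaciens, a gut species known to promote IgA, stood at 0.8% in each naive mouse and at 0.7, 1.1 and 1% in Ova-veh mice. It lay on both sides of the naive value, with a log2 difference of 0.19 (standard error 0.175). It was 0.37 without Ova-veh replicate 1 (limma adjusted p = 0.0920) and 0.062 without Ova-veh replicate 2. Anaeroplasma, a wall-less anaerobe first known from the rumen, differed in 1 mouse only, Ova-veh replicate 2 at 0.3% against 0.2% in all others. Odoribacter had a log2 difference of 0.14 (standard error 0.0790, limma adjusted p = 0.785), which was 0.074 without Ova-veh replicate 3 and 0.21 without Ova-veh replicate 1.

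The 5 largest lower values belonged to Clostridiaceae, F16, Epulopiscium, Escherichia coli and the less abundant Clostridiales row. F16 had an Ova-veh mean 0.75 times the naive mean and a log2 difference of -0.42 (standard error 0.217, limma adjusted p = 0.785), which was -0.22 without Ova-veh replicate 3 and -0.61 without Ova-veh replicate 2. Epulopiscium, of the Lachnospiraceae, stood at 0.3, 0.2 and 0.1% in naive and at 0.1, 0.1 and 0.2% in Ova-veh mice. E. coli, a facultative anaerobe that can grow in inflamed tissue, stood at 0.2, 0.3 and 0.4% in naive and at 0.3, 0.2 and 0.2% in Ova-veh mice. Both overlapped between groups, and both moved with single naive mice: the log2 difference of Epulopiscium was -0.41 with all mice and -0.12 without naive replicate 1, and that of E. coli was -0.28 with all mice and -0.081 without naive replicate 3. The less abundant Clostridiales row stood at 0.6, 0.5 and 0.5% in naive and at 0.5, 0.4 and 0.4% in Ova-veh mice. It met the naive values in a single mouse, with a log2 difference of -0.27 (standard error 0.118, limma unadjusted p = 0.0721, adjusted p = 0.785). Coriobacteriaceae at -1.06 (standard error 0.491) and Dorea at 0.53 (standard error 0.695) had larger log2 differences, but means below 0.1%, so that a single rounding step sets them.

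**Figure D4:**
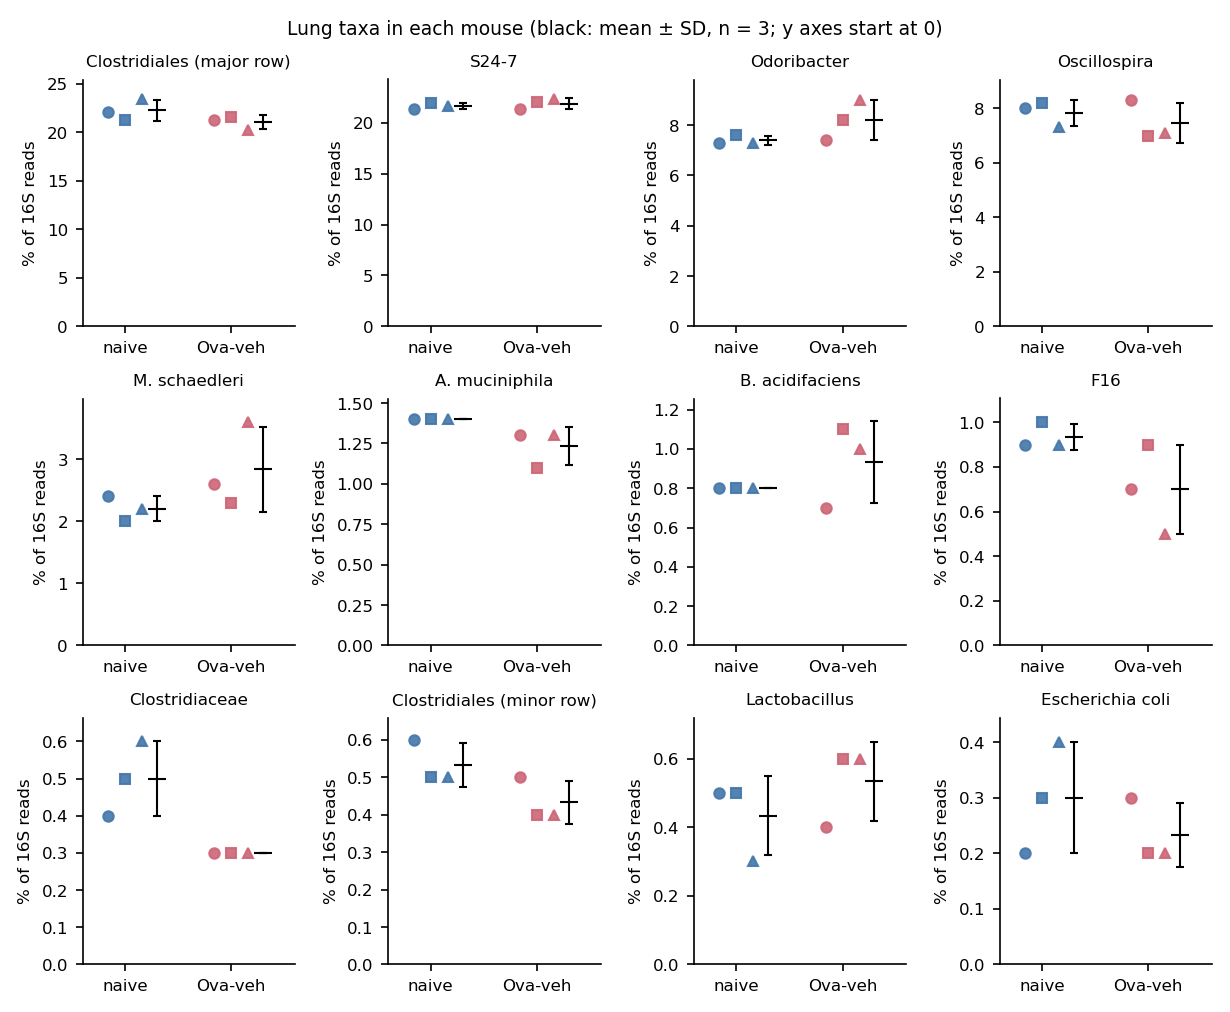
Share of 16S reads (%, each y axis from 0) of 12 lung taxa in 3 naive and 3 Ova-veh mice; each point is a mouse, symbols give the replicate number, and black marks give mean ± SD. Only Clostridiaceae (0.4 to 0.6% against 0.3%) and A. muciniphila (1.4% against 1.1 to 1.3%) show no overlap, and M. schaedleri, Odoribacter and F16 are spread wider among Ova-veh than among naive mice.

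Taxa were next grouped by traits that their names or families are known for, and limma called 0 members of any group. The 4 mucus-associated taxa, A. muciniphila, M. schaedleri, B. acidifaciens and Bacteroides with no species, summed to 6.2, 5.5 and 6% in naive and 6.1, 6.2 and 7.1% in Ova-veh mice (exact permutation p = 0.3). Their directions were mixed, as 2 were higher and 2 lower in mean, with a median log2 difference of 0.07. The 14 butyrate-associated taxa were every listed taxon of Lachnospiraceae and Ruminococcaceae, and Odoribacter. Both families were taken in whole, so a member need not make butyrate itself. The 14 taxa summed to 33.5% ± 1.12 in naive and 34.1% ± 0.896 in Ova-veh mice (SD, 3 mice per group, exact permutation p = 0.6). Of them 7 were higher, 5 lower and 2 equal in mean, with a median log2 difference of 0.01. Of 8 gut Proteobacteria on the list 5 were found, and they summed to 2.07% ± 0.153 and 2.13% ± 0.252 (SD, 3 mice per group, exact permutation p = 1). Desulfovibrio was higher in mean, E. coli lower, and Bilophila, Sutterella and RF32 had equal means. Of 5 lactic acid and bifidobacterial genera, Lactobacillus alone was listed. The intestinal anaerobe families summed to 69.5% ± 1.15 in naive and 71% ± 1.32 in Ova-veh mice (SD, 3 mice per group, exact permutation p = 0.3), with 13 of their 29 taxa higher, 10 lower and 6 equal.

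The phyla that carry LPS, which are Bacteroidetes, Proteobacteria, Deferribacteres and Verrucomicrobia, summed to 43.4, 44.9 and 43.9% in naive and to 43.7, 45.5 and 48.3% in Ova-veh mice. The groups overlapped, with Ova-veh replicate 3 the highest. The mean was 44.1% ± 0.764 in naive and 45.8% ± 2.32 in Ova-veh mice (SD, n = 3 each), a difference of 1.77 points (exact permutation p = 0.3). Of their 16 taxa 7 were higher, 6 lower and 3 equal. The phyla without LPS stood at 52.7% ± 0.379 and 50.9% ± 1.82 (SD, 3 mice per group, exact permutation p = 0.3), with 9 of 24 taxa higher, 10 lower and 5 equal. Shares of reads by phylum were summed here, and the amount of LPS was not measured by them.

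The remaining taxa lay close between groups. Prevotella, Ruminococcus, Bacteroides, Rikenellaceae, Bacteroidales with no family, Desulfovibrio, Allobaculum and the less abundant Lachnospiraceae row each held at least 1% of reads, and their log2 differences lay between -0.04 for Prevotella and 0.12 for Allobaculum. Ruminococcus gnavus, which can degrade mucin, stood at 0.767% ± 0.115 in naive and 0.667% ± 0.115 in Ova-veh mice (SD, 3 mice per group, exact permutation p = 0.5). Coprococcus, Ruminococcus flavefaciens, AF12, Dehalobacterium and the less abundant Ruminococcaceae row each lay between 0.2 and 0.6% in every mouse. Haererehalobacter salaria, of the salt-loving Halomonadaceae, was listed at 0.3 to 0.5% in all 6 mice, with means of 0.433% in naive and 0.4% in Ova-veh mice. Blautia producta at 0.2% and RF32 and Sutterella at 0.1% each were listed at the same value in all 6 mice. Peptostreptococcaceae, Bilophila and an Erysipelotrichaceae row with no lower rank had equal means in both groups. Dorea and Anaerostipes were the rarest taxa and were listed at 0 in 3 and 4 of the mice.

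The width of the intervals shows what the 6 mice could resolve. For 32 of 40 taxa the 95% interval of the fold by limma lay within 2-fold in either direction, and 3 of these rest on no spread because all mice were listed at the same value. All 16 taxa with a mean of at least 1% were among the 32, and 14 of the 16 lay within 1.5-fold. The interval of S24-7 ran from 0.965 to 1.06 and that of the more abundant Clostridiales row from 0.865 to 1.03. The 8 taxa with wider intervals had means of at most 0.4%. These intervals are not adjusted for the number of taxa, measure only the spread between these mice, and for rare taxa take in rounding. The coefficient of variation within groups had a median of 8.27% over the 16 taxa of at least 1% and of 19.2% over the rarer ones. The SD was larger among Ova-veh mice for 20 taxa, larger among naive mice for 8 and equal for 12.

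The same contrast was available for colon contents of 5 naive and 4 Ova-veh mice, whose values were scaled in a table of their own. Whether lung and colon samples came from the same mice is not stated in the labels, and the tissues were permuted as separate mice. Of the 40 lung taxa 29 were also listed for the colon, and of the 8 lung phyla 6 were, with Verrucomicrobia and Actinobacteria listed for the lung only. Lungs were far more alike from mouse to mouse in the median. The median Bray-Curtis distance among Ova-veh mice was 0.0485 in lung and 0.362 in colon, where pairs ran from 0.0736 to 0.532. Among naive mice the median was 0.0371 in lung and 0.141 in colon, where pairs ran from 0.0930 to 0.211. Bacteroidetes differed by 1.27 points in lung and by -4.37 points in colon, and Firmicutes by -1.53 and 4.99 points, which are opposite signs in both cases. The difference between the tissues was within what relabelling the mice gives (exact permutation p = 0.567 for Bacteroidetes and 0.503 for Firmicutes over 2520 labelings). Deferribacteres differed by 0.633 points in lung and -0.11 points in colon (exact permutation p = 0.0893, 0.536 after adjustment over 6 phyla). At an adjusted exact p under 0.05, 0 of 6 phyla differed in their response between lung and colon (0%), and at an unadjusted one also 0.

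Single taxa are set side by side for the tissues with no test. M. schaedleri held 2.2% of reads in naive and 2.83% in Ova-veh lungs, and 0.46% and 0.35% in colon. Odoribacter had a higher Ova-veh mean in both, 8.2 against 7.4% in lung and 3.8 against 2.34% in colon. B. acidifaciens had a higher Ova-veh mean in lung, 0.933 against 0.8%, and a lower one in colon, 0.9 against 2.2%. Clostridiaceae, at 0.4 to 0.6% in naive and 0.3% in Ova-veh lungs, was listed at 0 in all naive colons and at no more than 0.1% in Ova-veh colons. Desulfovibrio with no species stood at 1.43 and 1.57% in lung and at 0.04 and 0.2% in colon. A separate colon row, Desulfovibrio C21 c20, stood at 0.6, 0.2, 0, 0.4 and 0.3% in naive mice. In Ova-veh mice that row stood at 0.1, 0.2, 0.1 and 0%. The row with no species therefore does not give the colon share of the genus or its direction. In Ova-veh mice B. acidifaciens thus had like means in both tissues, though single Ova-veh colons ran from 0.2 to 1.6%. M. schaedleri, Odoribacter and Desulfovibrio with no species had higher means in lung than in colon in both groups.

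**Figure D5:**
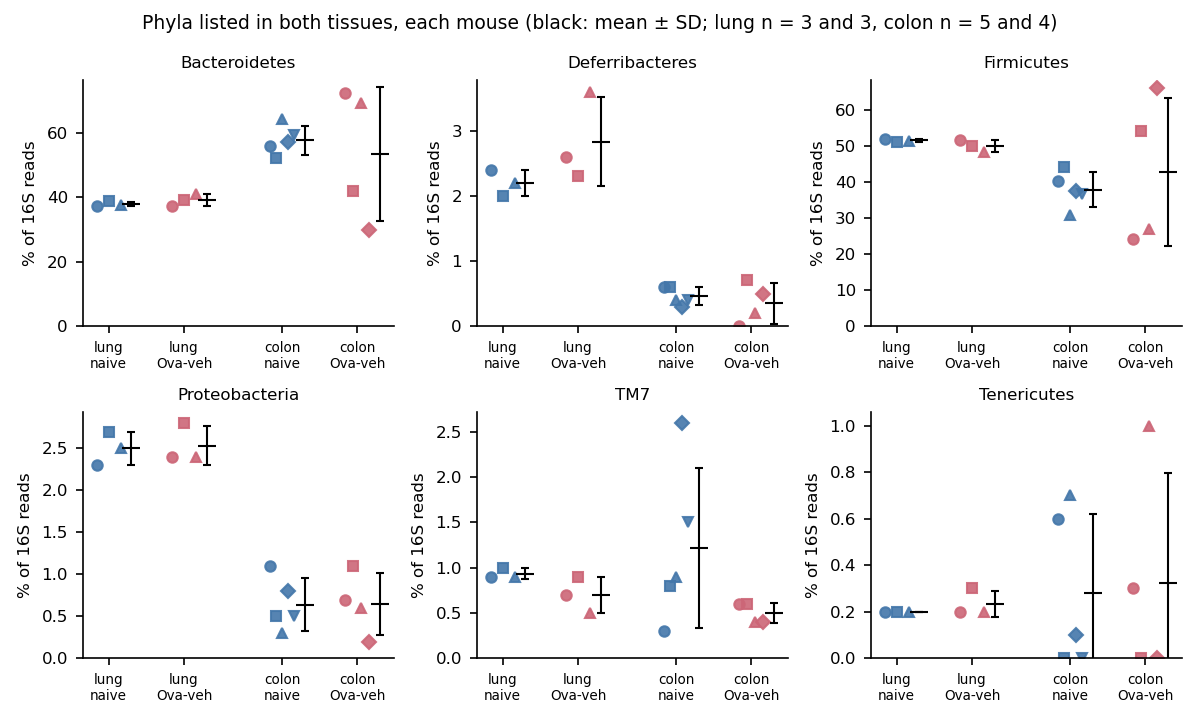
Share of 16S reads (%, each y axis from 0) of the 6 phyla listed in both tissues, in naive and Ova-veh lungs (n = 3 and 3) and colons (n = 5 and 4); each point is a mouse, and black marks give mean ± SD (bars are cut at 0). Firmicutes and Bacteroidetes spread far more among Ova-veh colons than among Ova-veh lungs, and Deferribacteres lie at 2 to 3.6% in lung against at most 0.7% in colon.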

How the data were processed

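The authors made 16S rRNA libraries from lung DNA, assigned reads to taxa with the Nephele platform and deposited fractions of reads per taxon and mouse, rounded to 3 decimals. Pipeline version, reference taxonomy and depth are not given in the sources used. Fractions were turned into percent and added up by phylum, order and family. Where a name had 2 rows (3 names), the abundant and the rarer row stayed separate. Taxa with a mean of at least 0.01% over the 6 mice, which were all 40, went into limma 3.58.1, run in R 4.3.3 (lmFit and eBayes, no trend, no robust step) on log2(percent + 0.05), with Benjamini-Hochberg adjustment and a threshold of 0.05. Sums, diversity and distances were tested by two-sided exact permutation over all 20 splits of the mice, with adjustment within each rank, and communities, scaled to a common total, by PERMANOVA. The change in lung was set against that in colon by permuting group labels within each tissue. Python 3.11.15 with numpy 2.4.6, scipy 1.17.1, pandas 2.3.3 and matplotlib 3.10.9 was used. Steps were tested on simulated data.

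Groups follow the condition named in each label, with each sample taken as 1 mouse, and p-values measure only the spread between these samples. Values in every mouse are given for the 6 most abundant taxa, for taxa with no overlap between groups, and for the 5 largest rises and 5 largest falls among taxa with a mean of at least 0.1%. The members, the lists of taxa and this rule were chosen with earlier results of these data known. Replicate numbers are shared by the groups, and deviations of same-numbered mice from their group means had correlations of 0.497, -0.540 and -0.228. With 3 mice a group such values cannot exclude pairing. Same-numbered mice were not treated as pairs in the main tests. Alternatives were other pseudocounts and filters, centred log-ratio scaling, other distances, summing rows of one name, a replicate block and leaving out each mouse.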

Additional observations from a re-analysis of the deposited data

How the results depend on the processing

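Under pseudocounts of 0.01 and 0.1%, a minimum mean of 0.1%, no filter, a trend and robust step, summed rows of one name and centred log-ratio scaling, limma called 0 taxa, as in the report. With any 1 mouse left out it called 0 to 2. At an unadjusted p under 0.05, an alternative chosen after seeing the data, it called 1 with all mice and 1 to 5 with 1 left out. With the replicate number as a block limma also called 0 taxa (2 at an unadjusted p, smallest adjusted p 0.0628), and permuting within numbers gave p = 0.5 for the community by exact permutation. Of 40 taxa, those with no overlap numbered 0 when a gap of more than 1 rounding step was asked for, and 2 to 10 when each mouse was left out. Under centred log-ratio scaling, which moves the median log2 difference by 0.04, the 2 taxa were Clostridiaceae, lower, and Odoribacter, higher. Of the sums by 8 phyla, 14 orders and 21 families, 4 had no overlap, that of A. muciniphila at each rank and that of Clostridiaceae. These sums are nested, so 1 taxon can count at each rank. The count was 7 after scaling all mice to the same total, and 4 to 13 when each mouse was left out. The community share then ran from 17.5 to 44.5%. Directions also turned when a mouse was left out. The Shannon difference ran from -0.0106 to 0.0120 and that of Proteobacteria from -0.1 to 0.133 points. Of 33 taxa with a log2 difference other than 0, 12 turned, among them the more abundant Ruminococcaceae row (-0.060 to 0.12) and Lachnospiraceae row (-0.020 to 0.088), all 12 with a log2 difference between -0.12 and 0.12. The cause was not tested. Also chosen after seeing the data, taxa of at least 1% alone gave a Shannon difference of 0.0225 (exact permutation p = 0.2). With 3 mice a group, unknown read numbers and steps of 0.1%, taxa of a few steps could not be resolved.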

Other observations

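A ratio of the main mucus-associated species was looked at after the values of both had been seen, so it is given as a description with no test. The share of Akkermansia muciniphila over that of Mucispirillum schaedleri was 0.583, 0.700 and 0.636 in naive mice and 0.500, 0.478 and 0.361 in Ova-veh mice. Each Ova-veh mouse lay below each naive mouse, and in Ova-veh mice the former had a lower and the latter a higher mean. A. muciniphila alone already showed no overlap, at 1.4% against 1.1 to 1.3%, with nearest values 1 rounding step apart. M. schaedleri overlapped, with Ova-veh replicate 2 at 2.3% against 2 to 2.4% in naive mice. How many other ratios of taxa show no overlap was not counted.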
